A study of Mus musculus with 3 samples.

Results

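The target genes of Yap and Taz described here are 10 genes, Cyr61, Ctgf, Ankrd1, Amotl2, Ajuba, Crim1, Nt5e, Dlc1, Fjx1 and Ptpn14, picked by symbol from the 24523 genes of the deposited expression table. The cells belong to a murine line of small cell lung cancer (SCLC), numbered 3 by the submitters. The control cells (n = 1 library) were infected with a lentiviral CRISPR vector, Crispr-V2, for which no guide is named, and the knock-out cells (n = 2 libraries) with the same vector carrying guide sg1 or guide sg2 against Kdm1a. All 3 libraries thus come from infected cells, which were kept in puromycin for at least 1 week, and each guide was sequenced once. Kdm1a encodes the histone demethylase LSD1. All 10 genes passed the filter on low counts and entered the test.

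Yap and Taz (the product of Wwtr1) are transcriptional coactivators held in check by the Hippo kinase cascade, in which the Mst kinases activate the Lats kinases and these mark Yap and Taz for retention in the cytoplasm and for degradation. In the nucleus they bind DNA through the Tead factors, whose core recognition sequence is GGAATG. Several of their targets feed back on the pathway or act on adhesion, matrix and the actin cytoskeleton. Neuroendocrine SCLC cells are known for low levels of Yap1, and non-neuroendocrine SCLC cells for higher ones.

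The stretch before the gene start was examined first, since it shows what the genes share in sequence. RefSeq promoters (GRCm38.p6, the assembly of mm10) were used for 7 of the 10 genes; those of Ctgf, Dlc1 and Fjx1 were not analysed here. Each of the 7 had 1 window of 250 bases before an annotated start, which in Amotl2, Crim1 and Ptpn14 is not the outermost one. Of the 7 windows 6 held GGAATG on either strand, against 12.6% of all 32851 such windows. The sequences of 3 genes that rose in the knock-out (Cyr61, Ankrd1 and Ajuba), of Amotl2, which did not pass the test, and of Nt5e, which alone of the 7 lacked the motif, are given 5′ to 3′ on the strand of the gene, with the Tead core in capitals.
Cyr61, chr3:145649986-145650235, minus strand: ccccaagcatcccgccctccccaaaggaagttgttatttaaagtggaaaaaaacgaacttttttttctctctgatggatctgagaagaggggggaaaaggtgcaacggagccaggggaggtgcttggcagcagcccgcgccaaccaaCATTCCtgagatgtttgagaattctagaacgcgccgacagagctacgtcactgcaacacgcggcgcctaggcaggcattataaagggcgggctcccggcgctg
Ankrd1, chr19:36119845-36120094, minus strand: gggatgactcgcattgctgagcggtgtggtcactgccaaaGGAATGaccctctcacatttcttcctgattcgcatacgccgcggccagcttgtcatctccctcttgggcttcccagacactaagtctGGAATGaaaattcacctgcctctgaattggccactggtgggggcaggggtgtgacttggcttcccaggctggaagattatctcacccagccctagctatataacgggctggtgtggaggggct
Ajuba, chr14:54577662-54577911, minus strand: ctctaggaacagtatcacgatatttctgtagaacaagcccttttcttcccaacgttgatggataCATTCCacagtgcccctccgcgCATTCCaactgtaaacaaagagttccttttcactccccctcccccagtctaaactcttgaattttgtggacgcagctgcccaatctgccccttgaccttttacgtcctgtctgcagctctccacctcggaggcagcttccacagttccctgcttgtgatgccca
Amotl2, chr9:102717554-102717803, plus strand: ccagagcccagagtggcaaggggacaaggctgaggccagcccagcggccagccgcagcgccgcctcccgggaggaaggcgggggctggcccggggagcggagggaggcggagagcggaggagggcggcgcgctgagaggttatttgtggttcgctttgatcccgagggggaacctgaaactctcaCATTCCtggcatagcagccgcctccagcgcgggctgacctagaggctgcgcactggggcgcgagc
Nt5e, chr9:88327359-88327608, plus strand: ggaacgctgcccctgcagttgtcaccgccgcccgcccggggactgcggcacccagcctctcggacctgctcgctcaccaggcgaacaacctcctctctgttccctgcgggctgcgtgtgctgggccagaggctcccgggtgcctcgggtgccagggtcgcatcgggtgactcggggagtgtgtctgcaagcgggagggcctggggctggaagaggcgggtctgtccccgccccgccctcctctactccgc

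The cores lay at different distances from the start, counted with -1 as the last base before it. Ankrd1 and Ajuba held 2 each, with first bases at -210 and -123 in Ankrd1 and at -186 and -164 in Ajuba. The single cores began at -103 in Cyr61, -65 in Amotl2, -79 in Crim1 and -146 in Ptpn14. Written so that the core reads GGAATG, the sites and their flanks compare as follows.
Cyr61: tcaGGAATGttg
Amotl2: ccaGGAATGtga
Ptpn14: ccaGGAATGcgt
Ajuba, at -186: tgtGGAATGtat
Ajuba, at -164: gttGGAATGcgc
Ankrd1, at -210: aaaGGAATGacc
Ankrd1, at -123: tctGGAATGaaa
Crim1: gggGGAATGagg
The cores of Cyr61, Amotl2 and Ptpn14 shared the bases CA before GGAATG, and those of Cyr61, Amotl2 and the Ajuba site at -186 shared a T after it. None of the 7 windows held the AP-1 motif TGANTCA (6.75% of all windows) or a CArG box, the recognition motif of Srf (1.47%), on either strand. A match describes the letters and does not show binding. Genes with the core were found both among those that rose (Cyr61, Ankrd1, Ajuba) and among those that did not pass the test (Amotl2, Crim1, Ptpn14), and among 9 other Yap and Taz targets with a RefSeq promoter 1 held it.

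**Figure D1:**
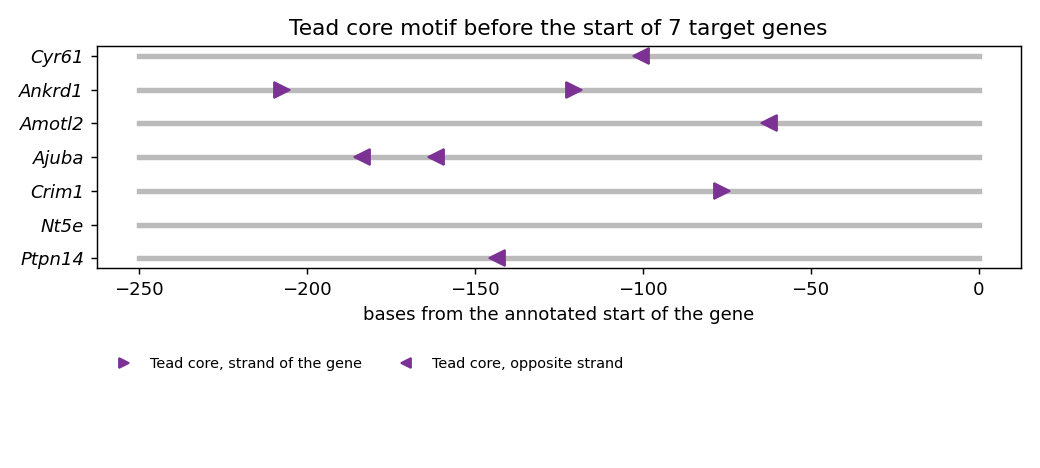
Position of the Tead core GGAATG (triangles, pointing right on the strand of the gene and left on the opposite strand) in the 250 bases before the annotated start of the 7 genes with a RefSeq promoter. Each of them except Nt5e holds 1 or 2 cores.

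The libraries held 43424212 (control), 44667861 (sg1) and 51066078 counts (sg2). As a check of the labels, Kdm1a had 11468, 3950 and 5716 counts, which is 0.331 of the control level with sg1 and 0.428 with sg2, and the difference missed the threshold (log2 -1.40, adjusted p = 0.0537 in edgeR's quasi-likelihood test). Levels below are CPM, counts scaled to library size, within a gene, and RPKM, which is also scaled to gene length, between genes. The test compares both guides with a control that was not replicated, and its spread comes from the pair of guides. Nothing in the labels places them in separate cultures beyond the separate infections, so the spread may be technical in part. Counting intervals are 95% exact intervals for counting error only.

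The question was how the targets of Yap and Taz differ between cells with and without the knock-out. Of the 10 genes, 6 rose in the knock-out (Cyr61, Ctgf, Ankrd1, Ajuba, Dlc1 and Fjx1) and 0 fell at an adjusted p under 0.05 in edgeR, where 6.33% of the 15936 genes tested were called higher and 1.70% lower. At an unadjusted p under 0.05 in edgeR, 1 of the 10 was lower (Nt5e), against 992 of the 15936 genes tested. DESeq2, limma-voom and limma-trend called 0 of the 10 lower. The same 6 genes stood at least 1.5-fold above the control with both guides, against 18.3% of all genes tested. The median log2 fold change of the 10 genes was 4.57, and that of all genes tested 0.06; genes without control counts do not move the first median when set to their lower bound. Since the genes were chosen with earlier results of these data known, the counts describe them and are no independent test. In bulk RNA, more cells that express a gene and more RNA per cell cannot be told apart.

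**Figure D2:**
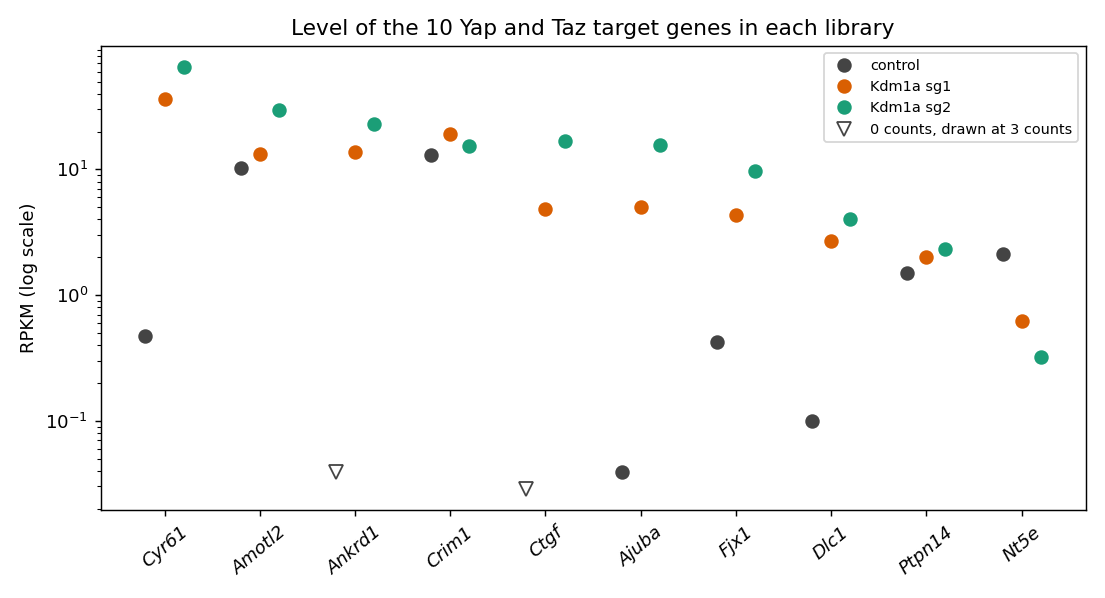
RPKM (log axis) of each of the 10 genes in the control (grey), sg1 (orange) and sg2 (green) libraries, ordered by the mean of both guides, with open triangles at the level of 3 counts for the 2 genes with 0 control counts. The genes that rose lie under 0.5 RPKM in the control and above 2 RPKM with both guides, while Nt5e runs the other way.

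The secreted targets were examined first. Cyr61 and Ctgf, also named Ccn1 and Ccn2, encode matricellular proteins of the CCN family that bind integrins, and both are widely used as readouts of Yap activity. Cyr61 (NM_010516, chromosome 3, 145646971 to 145649985) was at 42 counts in the control library and at 3319 (sg1) and 6835 (sg2) in the knock-out. This is 0.968 CPM against 73.5 and 135 CPM, a 108-fold rise to 104 ± 43.6 CPM (SD, n = 2; log2 6.75, SE 0.696, edgeR adjusted p = 8.38e-05). Its ratio to the control had a counting interval of 56.1 to 106 with sg1 and of 103 to 194 with sg2, so both guides lay far above the control.

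Ctgf (NM_010217, chromosome 10, 24595442 to 24598683) gave 0 control counts but 525 (sg1) and 2070 (sg2) in the knock-out, so the control gave no sign of it at this depth. A count of 0 allows up to 3 counts per library, which is 0.0692 CPM in the control. Against this limit Ctgf was at least 380-fold higher (26.3 ± 20.7 CPM, edgeR adjusted p = 0.000212), at least 168-fold with sg1 and at least 592-fold with sg2. A predicted gene, Gm15270, overlaps Ctgf in the annotation, and reads shared with it cannot be told apart.

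Of the 4 paralogs of the CCN family in the table, Wisp1 (Ccn4) went from 0 counts to 1330 and 1271 and was at least 395-fold higher (27.3 ± 3.06 CPM, edgeR adjusted p = 3.66e-05). Nov (Ccn3), which was picked with its values known, did not pass (731, 755 and 269 CPM, log2 -0.51, adjusted p = 0.709). Wisp2 (2, 94 and 16 counts, log2 4.62, edgeR adjusted p = 0.15) did not pass either. Nor did Wisp3 (109, 134 and 51 counts, log2 -0.34, edgeR adjusted p = 0.908). Both were likewise picked with their values known. On the RPKM scale Nov stood at 306 in the control, where Cyr61 stood at 0.473 and Ctgf was listed at 0. With sg2 the RPKM were 111 for Nov, 65.3 for Cyr61 and 16.7 for Ctgf.

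The nuclear and cytoskeletal targets followed. Ankrd1 encodes an ankyrin repeat protein of the nucleus and the muscle sarcomere and is best known from heart muscle. Its gene (NM_013468, chromosome 19, 36111965 to 36119844) gave 0 control counts but 1103 (sg1) and 2105 (sg2) in the knock-out. It was at least 478-fold higher (33.0 ± 12.2 CPM, edgeR adjusted p = 4.34e-05), at least 353-fold with sg1 and at least 602-fold with sg2. Its paralogs Ankrd2 (4, 27 and 34 counts, adjusted p = 0.40) and Ankrd23 (327, 373 and 665 counts, adjusted p = 0.757), both picked with their values known, did not pass.

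Ajuba encodes a LIM domain protein that binds and restrains Lats kinases. Its gene (NM_010590, chromosome 14, 54567469 to 54577661) gave 6 control counts against 800 (sg1) and 2820 (sg2). The rise was 266-fold (0.138 to 36.7 ± 26.9 CPM; log2 8.03, SE 0.998, edgeR adjusted p = 0.000261). With so few control counts its pooled ratio had a counting interval of 125.5 to 745.5. The other LIM genes of the family, picked with their values known, were already present in the control: Limd1 had 5760, 5033 and 6111 counts (adjusted p = 0.88) and Wtip 420, 885 and 1576 (log2 1.39, adjusted p = 0.17), and neither passed.

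Dlc1 (NM_001194940, chromosome 8, 36567739 to 36953184) had 37 control counts against 1022 (sg1) and 1758 (sg2). It rose 33.6-fold, from 0.853 to 28.7 ± 8.57 CPM (log2 5.07, SE 0.68, edgeR adjusted p = 0.000443). Fjx1, the mammalian homologue of Drosophila four-jointed, a Golgi kinase that acts on the cadherins Fat and Dachsous in the fly, lies on chromosome 2 from 102449366 to 102451792 (NM_010218). It had 45, 478 and 1227 counts and rose 16.8-fold, from 1.04 to 17.4 ± 9.67 CPM (log2 4.07, SE 0.759, edgeR adjusted p = 0.00432). For both genes the lower of the guides was sg1, at 26.5-fold the control for Dlc1 and 10.2-fold for Fjx1. Of the mouse genes related to these fly cadherins, Fat4 rose 16.1-fold (79, 1704 and 1050 counts, edgeR adjusted p = 0.00177). Dchs1 did not pass (631, 1067 and 1474 counts, edgeR adjusted p = 0.417). Fat4 and Dchs1 were picked with their values known.

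Another 3 genes were already expressed in the control and did not pass the test. Amotl2, an angiomotin that binds Yap and also restrains it (NM_019764, chromosome 9, 102717091 to 102733418), had 43.1 CPM in the control against 55.8 (sg1) and 127 CPM (sg2). The guides disagreed in size, 1.29-fold with sg1 and 2.94-fold with sg2, and the log2 fold change of 1.08 (SE 0.534) missed the threshold (edgeR adjusted p = 0.318). Its paralog Amotl1 rose 4.95-fold (35.2 to 174 ± 47.0 CPM, adjusted p = 0.00985), while Amot, picked with its values known, did not pass (55.6 to 22.4 ± 5.10 CPM, adjusted p = 0.102).

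Crim1, a transmembrane protein that binds BMP ligands (NM_015800, chromosome 17, 78200233 to 78376592), had 79.2, 115 and 93.7 CPM in control, sg1 and sg2 (log2 0.39, SE 0.427, edgeR adjusted p = 0.734). Fez2 overlaps it in the annotation with 385, 637 and 1102 counts, and the strand setting of the counting is not given in the sources used here. Ptpn14, a tyrosine phosphatase that holds Yap in the cytoplasm (NM_001033287, chromosome 1, 189728216 to 189876695), had 16.3, 21.4 and 25.6 CPM (log2 0.53, SE 0.49, edgeR adjusted p = 0.68). Its paralog Ptpn21, picked with its values known, did not pass either (1813, 2495 and 4219 counts, adjusted p = 0.478). Crim1 lay 1.45-fold (sg1) and 1.18-fold (sg2) above the control and Ptpn14 1.31-fold and 1.57-fold, all beyond counting error but not beyond the spread the test allows for.

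Nt5e ran the other way. It encodes CD73, the surface enzyme that turns AMP into adenosine, and lies on chromosome 9 from 88327609 to 88372089 (NM_011851). Its counts were 334 in the control, 100 (sg1) and 59 (sg2), which is 7.70, 2.21 and 1.17 CPM. The guides stood at 0.288 (counting interval 0.228 to 0.361) and 0.151 (0.113 to 0.200) of the control, both below it by more than counting error. In the test, with its spread moderated over all genes, the difference missed the threshold (log2 -2.19, SE 0.711, edgeR adjusted p = 0.0902). Over 8 other analyses the adjusted p of Nt5e ranged from 0.0299 to 0.148, and it passed in the analysis without a filter on low counts. The authors' deposited lists of changed genes hold Nt5e among 2154 lower genes (8.78% of the table) and Cyr61, Ctgf, Ankrd1, Ajuba, Dlc1 and Fjx1 among 1833 higher genes (7.47%), and Amotl2, Crim1 and Ptpn14 in neither.

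The calls rest on counts. With limma-trend on log2(RPKM + 1), Cyr61 alone of the 6 kept its call (adjusted p = 0.0371), and the other 5 had adjusted p from 0.061 to 0.127.

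Levels per length showed how the order of the genes changed. In the control Crim1 (13.1 RPKM) and Amotl2 (10.2 RPKM) led, followed by Nt5e (2.13) and Ptpn14 (1.504), with Cyr61 (0.473), Fjx1 (0.423), Dlc1 (0.0997) and Ajuba (0.0391) lower and Ctgf and Ankrd1 listed at 0. In the knock-out Cyr61 led with 50.8 ± 20.5 RPKM (36.3 with sg1 and 65.3 with sg2), above Amotl2 (13.3 and 29.7) in both libraries. Amotl2, Ankrd1 (13.9 and 23.1), Crim1 (19.2 and 15.3), Ctgf (4.85 and 16.7) and Ajuba (5.07 and 15.6) overlapped between neighbours in this order. Fjx1 (4.37 and 9.79) overlapped Ajuba and lay above Dlc1 (2.68 and 4.02), which lay above Ptpn14 (1.99 and 2.34) and this above Nt5e (0.62 and 0.319). Crim1 and Amotl2 made up 81.9% of the summed CPM of the 10 genes in the control library but 48.1% (sg1) and 38.0% (sg2) in the knock-out, and Cyr61 0.648%, 20.7% and 23.3%.

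The 6 genes that rose were those below 0.5 RPKM in the control, and the 4 that did not pass lay above it, a limit chosen after the values were seen. A gene near 0 in the control passed the filter on low counts only through the knock-out libraries, and of 11677 genes in the table below this limit 3179 were tested. Of these 3179 genes 22.2% were called higher, against 2.38% of the 12757 genes tested at or above the limit. The control level also enters the fold change, so the split is a description and nothing is read from it.

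**Figure D3:**
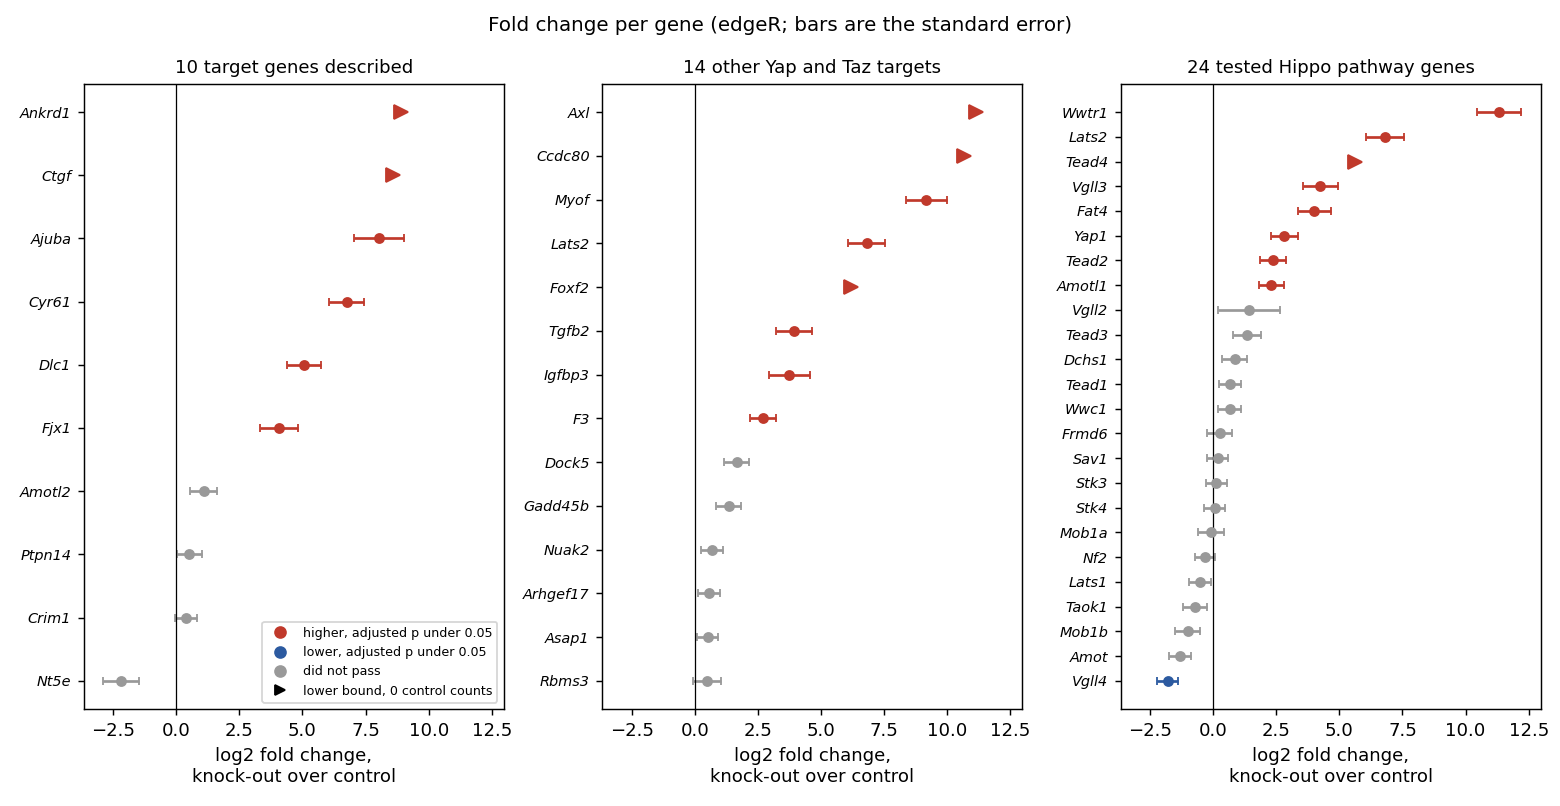
Log2 fold change of the knock-out over the control with its standard error for the 10 genes described, 14 other Yap and Taz targets and 24 tested Hippo pathway genes, coloured by edgeR's call, with arrowheads as lower bounds for genes with 0 control counts. Calls in the first and middle panels lie to the right of 0, and Vgll4 is the gene called lower. Lats2 appears in both the middle and the last panel.

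The guides were compared with each other. Of the 10 genes, 8 were higher with sg2 than with sg1, and 7 by at least 1.5-fold, where 17.0% of all genes tested were at least 1.5-fold higher with sg2 and 21.6% at least 1.5-fold higher with sg1. The ratio of sg2 to sg1 was 3.52 for Ctgf (counting interval 3.20 to 3.88), 3.15 for Ajuba (2.91 to 3.41) and between 1.20 and 2.29 for Fjx1, Amotl2, Cyr61, Ankrd1, Dlc1 and Ptpn14. Crim1 (0.817, interval 0.785 to 0.850) and Nt5e (0.527, 0.375 to 0.734) were lower with sg2. Long genes as a whole were lower with sg2. With a trend on gene length removed from each guide's ratio, a correction added after the data were seen, the ratio of sg2 to sg1 was 1.015 for Crim1, which then no longer lay lower with sg2, 1.82 for Ptpn14 instead of 1.20, and 0.573 for Nt5e. It was at least 1.5-fold for 7 of the 10 genes, among them Ptpn14 but not Ankrd1 (1.48), against 13.6% of all genes tested. With it, 7 of the 10 genes stood at least 1.5-fold above the control with both guides, Crim1 being the one added, against 18.2% of all genes tested. The intervals belong to the ratios without the correction and cover counting error only. With 1 library per guide a difference between guides cannot be told apart from one between libraries, and no test was made. Kdm1a mRNA was lower with sg1 (87.5 CPM) than with sg2 (113 CPM), the library in which 7 of these genes were at least 1.5-fold higher. Its part in the difference was not tested.

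**Figure D4:**
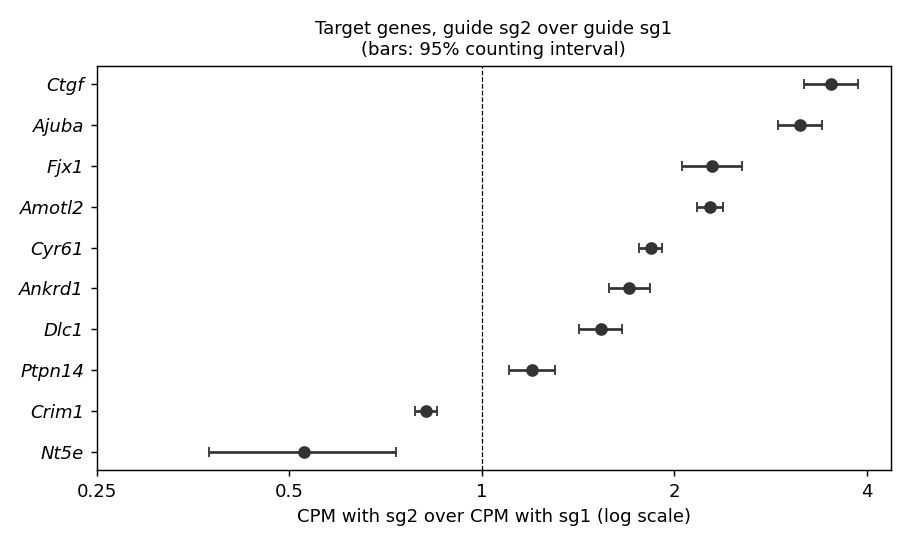
Ratio of CPM with sg2 to CPM with sg1 (log axis) for the 10 genes, with 95% counting intervals. Ctgf and Ajuba lie highest, at 3.52 and 3.15, and Crim1 and Nt5e below 1.

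The regulators of these targets were examined next. Of 25 Hippo pathway genes 24 were tested, and 8 rose and 1 fell (6.33% and 1.70% of all genes), with a median log2 fold change of 0.66. Yap1 had 11.3 CPM in the control against 62.6 (sg1) and 96.7 CPM (sg2), a 7.06-fold rise (log2 2.82, SE 0.525, edgeR adjusted p = 0.0043). Wwtr1, which encodes Taz, had 1, 2873 and 3509 counts, a pooled ratio of 2892 (counting interval 519 to 114200). On the RPKM scale the control held 2.68 of Yap1 and 0.00477 of Wwtr1, and the knock-out 18.9 ± 5.44 and 13.8 ± 0.627 RPKM.

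The Tead genes, which bring Yap and Taz to DNA, differed among themselves. Tead2 rose 5.21-fold, from 12.6 RPKM to 50.3 with sg1 and 81.0 with sg2 (edgeR adjusted p = 0.0103). Tead1 led in the control at 19.8 RPKM and did not pass (37.7 and 24.9 RPKM, adjusted p = 0.508), nor did Tead3 (4.84, 7.88 and 16.5 RPKM, adjusted p = 0.21). Tead4 had 0, 189 and 136 counts and was at least 49.7-fold higher (adjusted p = 0.0024), but it stayed low at 1.11 ± 0.358 RPKM. Both guides thus held Tead2 above Tead1, where the control held Tead1 above Tead2.

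**Figure D5:**
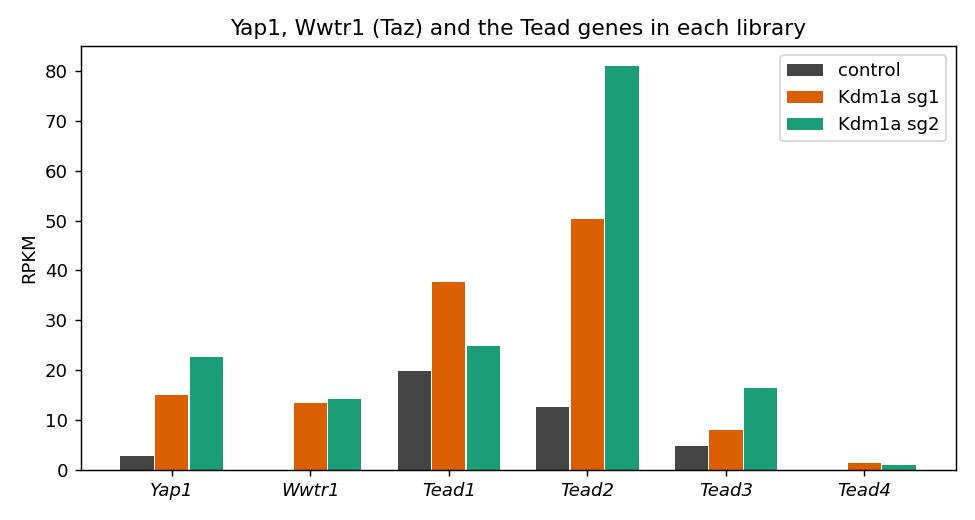
RPKM of Yap1, Wwtr1 and the Tead genes in the control, sg1 and sg2 libraries (bars from 0, 1 library each). Wwtr1 and Tead4 are at or near 0 in the control, and Tead2 is the tallest with both guides.

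Among the kinases and other regulators, Lats2, a kinase that restrains Yap and is itself a target, rose 114-fold (13, 1216 and 2081 counts; adjusted p = 0.000117), whereas Lats1, picked with its values known, did not pass (7283, 6348 and 4799 counts, adjusted p = 0.63). The Tead cofactor Vgll3 rose 19.1-fold (34, 778 and 646 counts, adjusted p = 0.00192). Vgll4, a Tead cofactor that competes with Yap, was the gene that fell, 3.49-fold (76.6 to 22.0 ± 4.57 CPM, adjusted p = 0.0198; picked with its values known). The 15 tested genes without a call had adjusted p from 0.102 to 0.974.

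Of 14 other Yap and Taz targets, 8 rose and 0 fell in edgeR, where 6.33% of all genes tested were called higher and 1.70% lower (0 of the 14 lower at an unadjusted p under 0.05, and 0 with DESeq2, limma-voom and limma-trend), with a median log2 fold change of 3.23. Axl, a receptor tyrosine kinase, was at least 2239-fold higher (0, 7382 and 7392 counts), the matrix protein gene Ccdc80 at least 1620-fold (0, 3637 and 7257 counts) and the forkhead factor gene Foxf2 at least 73.9-fold (0, 167 and 330 counts). Myof, a membrane repair protein, rose 589-fold (8, 3340 and 7239 counts). Their adjusted p lay between 1.64e-05 and 0.000973. The 6 that did not pass all lay above the control, with log2 fold changes from 0.49 to 1.66. Lats2, among the 8 that rose, is also counted with the Hippo genes, as are the paralogs Amot and Amotl1. Of the 13 paralogs of the 10 genes, 2 rose (Wisp1 and Amotl1) and 0 fell in edgeR, with a median log2 fold change of 0.73. At an unadjusted p under 0.05 in edgeR 1 was lower, Amot, and DESeq2, limma-voom and limma-trend called 0 lower. The 2 of 13 are to be read against the same 6.33%. For both lists, the lower counts at an unadjusted p are to be read against 992 of the 15936 genes tested.

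Markers of the labelled cell type and of other cells moved alongside. The neuroendocrine markers of SCLC were present in all libraries, with a summed level of 4249 CPM in the control against 2933 (sg1) and 2072 CPM (sg2); of 9, 2 fell (Neurod1 and Chga) and 1 rose (Calca), where 1.70% of all genes tested were called lower and 6.33% higher. Fibroblast markers summed to 7.77, 408.5 and 181 CPM, and 5 of 8 tested rose (6.33% of all genes). From sg1 to sg2, among the 5 that rose, Col1a1 went from 224 to 54.4 CPM and Col3a1 from 30.6 to 4.90 CPM. Pdgfrb went from 83.15 to 49.15 CPM, Fap from 11.2 to 4.55 CPM and Pdgfra from 46.6 to 48.8 CPM. Dcn (4.34 and 2.35 CPM), Thy1 (8.17 and 16.9 CPM) and Col1a2 (0, 15 and 6 counts) did not pass, and Lum had 0 counts in every library. The summed level of the 10 target genes was 149, 355 and 580 CPM. Of 6 endothelial markers 3 were tested and 1 rose (6.33% of all genes), Kdr (9, 433 and 1229 counts). Pecam1 (7, 21 and 1 counts) and Tek (7, 23 and 16 counts) did not pass. Cdh5 (0, 1 and 11 counts), Emcn (2, 0 and 0 counts) and Cldn5 (0 counts throughout) were not tested. Of 7 immune markers 2 were tested, and 0 passed, with Ptprc at 0, 0 and 1 counts. At an unadjusted p under 0.05 in edgeR there were also 0, against 2912 of the 15936 genes tested. Of 4 mesothelial markers 1 was tested, Lrrn4, which did not pass (80, 20 and 28 counts). The part of other cells in the rise of the target genes was not tested.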

How the data were processed

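RNA of 3 libraries was sequenced with paired-end reads. The authors deposited raw read counts per gene, and RPKM beside them, per the file headers; Bowtie2 2.2.3, TopHat2 2.0.12, HTSeq 0.6.1 and mm10 are named in the submitters' processing notes, without settings. The authors also deposited lists of higher and lower genes, used here for membership only.

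Counts were tested as deposited with edgeR 4.0.16 (R 4.3.3): TMM factors, filterByExpr, quasi-likelihood F test of both guides against the control, Benjamini-Hochberg adjustment over 15936 genes (1 residual degree of freedom, 11.5 prior degrees). CPM use library totals times the TMM factor, and folds are ratios of mean CPM. Standard errors (SE) were derived from the test, as the absolute log2 fold change divided by the square root of the F statistic. Fold changes per guide, behind the counts at 1.5-fold, use a prior count of 2. Alternatives were other scalings and filters, DESeq2 1.42.0, limma 3.58.1 (voom, and trend on log2(RPKM + 1)), removal of a gene length trend (for the values per guide, chosen after seeing the data), and each guide left out. The edgeR step was tested on simulated counts. The 10 genes and all lists were chosen with earlier results of these data known. Named were the 10 genes, Kdm1a, Yap1, Wwtr1 and Tead1 to Tead4, and up to 4 called genes with the largest change per list; genes named beyond this, or as markers, are marked or belong to the marker lists. Positions and promoters are RefSeq's, matched by Entrez identifier for 24418 genes. The control has 1 library, so among the libraries the spread comes from the guides alone, and it is moderated over all genes.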

Additional observations from a re-analysis of the deposited data

How the results depend on the processing

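With each of 8 other analyses the 6 calls among the 10 genes stood, except with limma-trend on log2(RPKM + 1), which called 1 of the 10 (Cyr61), 2 other Yap and Taz targets, 0 higher and 0 lower Hippo genes, 0 paralogs, and 27 higher and 4 lower genes in all. Without a filter on low counts Nt5e was called lower, so 1 of the 10, and 511 genes in all were lower against 271; with a mean count of at least 50 the lower genes were 180, and limma-voom called 513 higher genes against 1008. The share of higher genes among calls was 78.8% and ranged from 72.2% to 87.1%. No scaling moved the median of all genes by more than 0.1 (log2). When a guide was left out, 6 to 8 of the 10 genes were at least 1.5-fold higher with the remaining guide, without a test. With sg2 alone there were 8, where Amotl2 and Ptpn14 join, and with sg1 alone 6. No share of all genes tested is given for this cut on 1 guide, so nothing is read from these counts. With the length trend removed, an alternative chosen after seeing the data, 7 of the 10 genes stood at least 1.5-fold above the control with both guides (18.2% of all genes), Crim1 being the one added. No paired analysis was possible, since the control has 1 library and the labels pair it with neither guide. No value of the 10 genes changed sign. The cause of these differences was not tested. With 1 control library, a change in that library alone cannot be told apart from an effect of the knock-out.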
